A study of Homo sapiens with 50 samples.

Results

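DNA damage signalling and repair were represented in this screen by 38 short hairpin RNAs (shRNAs) against 6 genes, ATM, ATR, DDB1, RAD54L, ALKBH2 and ALKBH3. They were all rows of the deposited table of 3443 hairpins whose gene column held exactly 1 of these 6 symbols, whatever their values. ATM had 10 hairpins, ATR 8, and DDB1, RAD54L, ALKBH2 and ALKBH3 5 each. No hairpin naming several genes included 1 of the 6, and each symbol is current in RefSeq (GRCh38.p14).

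The screen looked for chromatin regulators that limit replicative lifespan, on the principle that cells carrying a hairpin against such a gene outgrow their neighbours over serial passage. IMR90 cells, a human lung fibroblast line with a finite lifespan, received pooled lentiviruses at a multiplicity of infection of 0.3 and were passaged at 3% oxygen. Per the labels, the cultures were 10 plates, each infected with 1 pairing of 5 initial hairpin pools, and each pool held added control hairpins, lamin B1 and a non-targeting one among them. The groups were population doubling (PD) 40, the proliferating starting point, then PD45, PD50 and PD55, and PD60, when growth had ended; none was a culture without virus. The readout was hairpin DNA amplified from the genome, so neither the level of the targeted transcript nor the fibroblast identity could be checked in these data.

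Normal cells answer DNA damage through a pair of related protein kinases. ATM is activated by breaks through both DNA strands, and ATR by stretches of unpaired DNA at stalled replication forks; both phosphorylate checkpoint proteins and halt the cell cycle. In fibroblasts, shortened telomeres are read as damage and this signalling holds senescent cells in arrest, while ATR is also needed by dividing cells to complete replication. DDB1 joins the CUL4 ubiquitin ligases to their substrate receptors, among them the sensor of ultraviolet damage. RAD54L is a motor protein of homologous recombination, and ALKBH2 and ALKBH3 are dioxygenases that remove methyl groups from damaged bases.

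Each population doubling was 1 pooled column, of 8626437 tags at PD40, then 8782622, 8479667, 11505688 and 8270745 tags at PD45, PD50, PD55 and PD60. With 1 column per time there was no replicate, and no test over cultures was made. Abundance is given as CPM, tags scaled to a column total of 1000000. Because CPM is a share of all tags, a lower value can mean loss of the cells or slower growth than that of the rest of the culture. The 50 hairpins most abundant at PD60 held 89.9% of tags at PD60 and 10.7% at PD40, so a falling share was the common outcome. Intervals are exact 95% Poisson intervals of a ratio and, like the 3-tag floor used where a count was 0, cover counting error only, since amplified tags without molecular identifiers are not independent molecules.

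Of the 38 hairpins, 3 were over 2-fold more abundant at PD60 than at PD40 and 35 were over 2-fold less abundant. Over all 3418 hairpins with at least 10 tags in either column, 2.28% were over 2-fold higher and 95.3% over 2-fold lower. All 38 passed that minimum. TMM and DESeq2 size factors were set from hairpins with tags, for DESeq2 the 1835 with a tag in every column. With either, 7 of the 38 were over 2-fold higher and 26 lower (18.8% and 64.4% of all hairpins with TMM). The median log2 fold change over all hairpins was still -1.84 with TMM and -1.91 with DESeq2 size factors. A higher value with these factors is thus relative to hairpins that lasted, not to the whole library. The 3 that gained relative to the column total, and also with both size factors, were ATR TRCN0000039617, DDB1 TRCN0000082856 and DDB1 TRCN0000082855. The median log2 fold change, of CPM plus a pseudocount of 1, was -6.11 over the 38 and -5.86 over all hairpins. With counts under 3 raised to 3 and no pseudocount, these medians were -7.41 and -7.12. The 3 gaining hairpins held nearly all tags of the group at PD60, so the summed share of the 6 genes was 2.75% at PD60 and 1.20% at PD40 although 35 of the 38 hairpins had a lower share. The other 35 together had 1190 tags at PD60 and 86189 at PD40, 69.4-fold lower by ratio of CPM.

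At PD45, 2 of 38 hairpins were over 2-fold higher than at PD40 (5.73% of all hairpins) and 27 over 2-fold lower (63.2% of all). At PD50 it was 1 higher (4.94% of all) and 34 lower (81.9% of all), and at PD55 1 higher (2.92% of all) and 36 lower (91.7% of all). The medians of the 38 were -1.94, -3.44 and -5.17 log2 at PD45, PD50 and PD55, and those of all hairpins -1.63, -3.46 and -4.93. No tag was seen for 1 of the 38 at PD50, 6 at PD55 and 14 at PD60. Of all 3443 hairpins, 326, 635 and 1519 (44.1%) were at 0 at those times. For 24 of the 38 the CPM was lower at each successive time, or at 0 once lost, as it was for 64.1% of all hairpins.

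ATR, the kinase of replication stress, had 1 hairpin that gained at every later time and 7 that were lower at PD60. Hairpin TRCN0000039617 had 1097 CPM at PD40, then 5356, 6710.3, 15942 and 18084 at the 4 later times. It stood at rank 155 of the library at PD40 and at ranks 25, 24, 15 and 18 at the later times. Its early gain, 4.88-fold at PD45 (4.78 to 4.99), was followed by 1.25-fold over the next interval, 2.38-fold up to PD55 and 1.13-fold up to PD60. The PD60 to PD40 ratio was 16.5 (16.1 to 16.8), from 149572 and 9465 tags. It was 1 of 27 hairpins, out of all 3443, that were over 2-fold higher at all 4 later times, and the sole one of the 38.

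Of these 7, TRCN0000010300 began as the most abundant of the 38, with 1802 CPM at PD40, then 340.1, 132, 8.43 and 1.09 at the 4 later times. Its 9 tags at PD60, against 15549 at PD40, made it 1656-fold lower (ratio 0.000604, 0.000276 to 0.00115). Only 0.581% of hairpins in the same quintile of starting abundance had a lower log2 fold change. TRCN0000010302 ended higher than most of the group, with 811, 225, 76.8, 43.2 and 73.0 CPM over the 5 times, 11.1-fold lower at PD60. Its CPM was 1.69 times as high at PD60 as at PD55, so the decline did not run through the last interval, and with TMM or DESeq2 size factors it was higher at PD60 than at PD40.

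TRCN0000039616 kept pace at first, with 452, 541, 119 and 10.0 CPM up to PD55 and 3 tags at PD60. TRCN0000010301 had 502, 174, 48.5 and 5.21 CPM up to PD55 and 2 tags at PD60, a ratio of 0.000482 (5.83e-05 to 0.00174). The last 3 ATR hairpins had started lower, at 63.8 to 161 CPM, and ended with 7 tags for TRCN0000039615 and 1 tag each for TRCN0000039613 and TRCN0000039614. No ATR hairpin was at 0 at PD60, although TRCN0000039613 had 0 tags at PD55 and 1 at PD60. At those counts neither a loss nor a return can be told from counting error.

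Summed over its 8 hairpins, ATR held 0.497% of tags at PD40, then 0.667%, 0.710%, 1.60% and 1.82% at the 4 later times. TRCN0000039617 alone made up 80.3% of the ATR tags at PD45 and 99.6% at PD60. Without it the ATR tags were 51.05-fold lower at PD60 than at PD40, from 627 and 33382 tags. At PD40 it had held 9465 of 42847 ATR tags, so the ratio of the sums, 3.66, was below its own 16.5. The SD of log2 fold change over the 8 hairpins was 4.38, rank 23 of 631 genes with at least 3 hairpins, where the median SD was 1.55.

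ATM, the kinase of DNA breaks, had no gaining hairpin: all 10 were over 2-fold lower at PD60, and 4 of them were at 0, where 95.3% of all hairpins were over 2-fold lower and 44.1% at 0. Their median log2 fold change of -7.17 was at rank 573 from the highest among 631 genes, the lowest of the 6. With counts under 3 raised to 3 and no pseudocount, the ATM median was -8.29 and that of all hairpins -7.12. ATM hairpins had started high, with a median of 3017 tags at PD40 against 1019 over the table, so that a larger fold loss could be measured. Within quintiles of starting abundance, 7 of the 10 lay below the median of their quintile. For the 4 at 0 tags the log2 fold change depends on the PD40 share alone, so this count does not fully remove starting abundance. At PD45 the ATM median of -1.29 had still been above the library's -1.63.

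The ATM hairpins that lasted were unequal. TRCN0000039950 was the most persistent, with 193 CPM at PD40, then 93.5, 80.8, 97.7 and 21.6 at the 4 later times. It stayed between 80.8 and 97.7 from PD45 to PD55 and was then 8.90-fold lower at PD60 than at PD40 (ratio 0.112, 0.0958 to 0.131), above 89.8% of hairpins in its quintile; with TMM or DESeq2 size factors it was higher at PD60. TRCN0000038655 had 523, 439.8, 352, 97.0 and 7.86 CPM over the 5 times, so most of its share was still there at PD50. TRCN0000039952, which began highest among the ATM hairpins, had 821, 281, 116, 49.9 and 6.77 CPM and was 121-fold lower at PD60. These 3 hairpins left 179, 65 and 56 tags at PD60, and no other ATM hairpin more than 7.

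Another 3 ATM hairpins started between 389.8 and 472 CPM and were nearly gone at PD60. TRCN0000038654 was left with 7 tags, TRCN0000039949 with 5 and TRCN0000039948 with 1, the last a ratio of 0.000256 (6.48e-06 to 0.00143). TRCN0000039949 had lost ground soonest, with 94.6 CPM at PD45 and 24.6 at PD50. The remaining 4 had 0 tags at PD60. TRCN0000038658 was at least 854-fold lower, having had 309.6 CPM at PD40 and 208 at PD45, and TRCN0000039951, with 194, 37.1 and 1.18 CPM up to PD50, at least 535-fold lower. TRCN0000038657 and TRCN0000038656 had 71.8 and 45.3 CPM at PD40, were at 0 from PD55 and were at least 198-fold and 125-fold lower at PD60. Together the ATM hairpins held 0.344% of tags at PD40, then 0.169%, 0.0827%, 0.0282% and 0.00378% at the 4 later times. That sum was 90.8-fold lower at PD60 than at PD40 relative to the column total, but 1.27 times as high with TMM scaling and 1.32 times with DESeq2 size factors.

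The ATM and ATR hairpins each came from a pair of separate number runs in the catalogue of clones. The ATM hairpins of the lower run (TRCN0000038654 to TRCN0000038658) had a median log2 fold change of -6.18 at PD60, and those of the higher run (TRCN0000039948 to TRCN0000039952) -7.61. For ATR, the 3 hairpins TRCN0000010300 to TRCN0000010302 had a median of -8.66 and the 5 hairpins TRCN0000039613 to TRCN0000039617 a median of -5.85. Ranges of log2 fold change overlapped within both genes. By summed tags the order turned for ATM: the lower run was 157-fold lower and the higher run 71.0-fold. For ATR it stayed the same, as the lower run was 41.9-fold lower and the higher run 9.77 times as high. That gain was TRCN0000039617, without which the higher ATR run was 520-fold lower. The higher ATR run began at a median of 1387 tags, against 6998, so a smaller fold loss could be measured per hairpin. Hairpin sequences were not used here, so whether hairpins against 1 gene shared a target site was not checked.

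DDB1, the adaptor of CUL4 ubiquitin ligases, held the other 2 gaining hairpins, and both gained in the last interval. TRCN0000082856 had 750.5 CPM at PD40, then 185, 149, 196 and 8739.7 at the 4 later times. TRCN0000082855 had 162, 78.5, 58.4, 25.5 and 555 CPM over the same times. Both were below their PD40 share at the 3 middle times and above it at PD60 alone. The PD60 to PD40 ratios were 11.6 (11.4 to 11.9) for TRCN0000082856 and 3.42 (3.22 to 3.64) for TRCN0000082855. Between PD55 and PD60 they were 44.6-fold and 21.8-fold higher.

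Steps of that size were uncommon in the table. Of 1795 hairpins with at least 10 tags at PD55 or PD60, 25 (1.39%) had an over 10-fold higher CPM at PD60 than at PD55, with PD55 counts under 3 raised to 3. DDB1 and AOF2, an older name of the lysine demethylase gene KDM1A, were the 2 genes with 2 such hairpins. AOF2 was named after its values were seen. DDB1 was also 1 of 7 genes among 631 with 2 hairpins past 2-fold above their PD40 share at PD60. As both gains rested on the PD60 column and that column had no replicate, their size in another culture is unknown.

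The other 3 DDB1 hairpins were over 2-fold lower at PD60, and 1 of them was at 0. TRCN0000082854 began level with TRCN0000082856, at 773 CPM at PD40, and had 562, 242, 26.9 and 2.06 CPM at the later times, 376-fold lower at PD60. TRCN0000082857 had 218, 90.6, 38.4, 11.5 and 1.21 CPM over the 5 times and was 180.1-fold lower. TRCN0000082853, which started at 202 tags, had 1 tag at PD45 and 0 at PD60, at least 64.6-fold lower. So 2 hairpins with like starting shares, TRCN0000082856 and TRCN0000082854, ended at 8739.7 and 2.06 CPM. Summed over its 5 hairpins, DDB1 held 0.193% of tags at PD40, then 0.0916%, 0.0489%, 0.0260% and 0.930% at the 4 later times, and TRCN0000082856 made up 94.0% of the last value. The SD over hairpins, 5.15 log2, was at rank 10 of 631 genes.

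RAD54L, the recombination motor, had a pair of hairpins with early gains that did not last. TRCN0000000233 had 148 CPM at PD40, then 380.1, 231, 38.3 and 6.89 at the 4 later times. It was 2.57-fold higher at PD45 (2.41 to 2.75), the second of the 2 hairpins of the group past 2-fold there, and 21.4-fold lower at PD60. TRCN0000000231 had 358, 648, 51.4, 7.47 and 2.18 CPM, 1.81-fold higher at PD45 (1.73 to 1.89) and 164-fold lower at PD60. Both peaked at PD45, and the share of TRCN0000000231 fell faster afterwards.

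The remaining RAD54L hairpins had no such phase. TRCN0000000230 had 252, 39.7, 6.49 and 0.521 CPM up to PD55 and 2 tags at PD60. TRCN0000000232 and TRCN0000000229 started at 64.9 and 33.2 CPM, were at 4.44 and 2.39 by PD45 and had 0 tags at PD60, at least 179-fold and 91.4-fold lower. The summed RAD54L share was 0.0856% at PD40, then 0.108%, 0.0289%, 0.00465% and 0.000931% at the 4 later times. The median log2 fold change at PD60 was -6.04. All 5 hairpins were over 2-fold lower relative to the column total (95.3% of all hairpins), TRCN0000000233 being higher with TMM or DESeq2 size factors. The sum was 92.0-fold lower at PD60 than at PD40 by column total, but 1.25 times as high with TMM and 1.30 times with DESeq2 size factors.

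ALKBH2 and ALKBH3, the base demethylases, had the lowest starting shares of the group and no gaining hairpin. ALKBH2 acts mainly on paired DNA, and its hairpin TRCN0000064682 was the most persistent of the 10. It had 236 CPM at PD40, then 294, 251, 61.0 and 17.4 at the 4 later times, with 144 tags left at PD60. At PD45 it was 1.24-fold higher than at PD40 (1.17 to 1.32), and at PD60 13.6-fold lower (ratio 0.0738, 0.0619 to 0.0874). Its log2 fold change at PD60 was above that of 85.6% of hairpins in its quintile of starting abundance. With TMM or DESeq2 size factors this hairpin was higher at PD60 than at PD40, by 3.04 and 3.10 log2, and so was the ALKBH2 sum, at 4.05 and 4.22 times its PD40 value. All other ALKBH2 hairpins had 0 tags at PD60, from 279 to 914 tags at PD40. TRCN0000064679 was at least 292-fold lower, TRCN0000064681 at least 219-fold, TRCN0000064678 at least 112-fold and TRCN0000064680 at least 89.2-fold. TRCN0000064678 went more slowly than these, at 20.2 CPM at PD45 and 10.4 at PD50 against 40.8 at PD40.

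ALKBH3, which prefers unpaired DNA and also acts on RNA, had 5 hairpins that were all at 0 or 1 tag at PD60. They ranged from 321 to 1099 tags at PD40, then 44 to 128, 5 to 51, 2 to 6 and 0 to 1 at the 4 later times. All 5 were over 2-fold lower at every later time, where 63.2%, 81.9%, 91.7% and 95.3% of all hairpins were. Their median log2 fold change at PD60, -5.47, was above the -5.86 over all hairpins. TRCN0000064748, the most abundant at PD40 with 127 CPM, was already at 5.01 CPM at PD45, 25.4-fold lower, and at least 351-fold lower at PD60. TRCN0000064751 was at least 201-fold and TRCN0000064752 at least 119-fold lower. TRCN0000064750 and TRCN0000064749 had 1 tag each, ratios of 0.00306 (7.72e-05 to 0.0172) and 0.00325 (8.20e-05 to 0.0182). A median of 373 tags at PD40, against 1019 over the table, limits how large a loss could be measured for this gene.

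Starting abundance was uneven across the group and touches each of these values. Of the 38 hairpins, 13 lay in the highest quintile of PD40 abundance, of 2998 to 123277 tags, and 4 in the lowest, of up to 323. In the highest quintile 2 of 13 were over 2-fold higher at PD60, where 6.24% of all hairpins of that quintile were, and the medians were -7.83 over the 13 and -6.24 over the quintile. In the third quintile it was 1 of 5, against 1.02% of all. In the 2 lowest quintiles 10 of 14 hairpins were at 0 at PD60, where 84.5% of the lowest and 69.8% of the second lowest quintile were.

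The list of other genes of DNA damage signalling and repair had 29 genes and 141 hairpins in the table. Of these 141, 3 were over 2-fold higher and 134 over 2-fold lower at PD60, relative to PD40, near the shares of all hairpins (2.28% and 95.3%). The median was -5.72 log2. The 3 that gained were single hairpins against SIRT1, a nuclear deacetylase, UBE2B, a ubiquitin-conjugating enzyme of postreplication repair, and RPA1, a subunit of the complex that coats unpaired DNA. Their ratios were 47.9 (46.4 to 49.6) for SIRT1 TRCN0000018979, 5.96 (5.40 to 6.59) for UBE2B TRCN0000004012 and 2.15 (1.94 to 2.38) for RPA1 TRCN0000010982. SIRT1 and UBE2B are named because they fill that count, and were chosen after their values were seen.

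By gene median, the highest of this list were RPA1 at -1.27 over 4 hairpins, H2AFX, the histone variant phosphorylated by ATM and ATR, at -2.84 over 4, and CUL4A, a scaffold that binds DDB1, at -3.24 over 5. The lowest were SMC3, a cohesin subunit, at -7.69 over 4, RAD54B, a relative of RAD54L, at -7.12 over 5, and SIRT6, a chromatin deacetylase, at -6.96 over 5. At PD60, 2 RPA1, 3 CUL4A and no H2AFX hairpins had 0 tags. The same held for 2 SMC3, 1 RAD54B and 2 SIRT6 hairpins. At 0 tags the log2 fold change is set by the PD40 share and the pseudocount, so a high median need not mean that hairpins lasted. For CUL4A and CUL4B, the scaffolds that DDB1 serves, all 10 hairpins were over 2-fold lower at PD60, as were 95.3% of all hairpins. Their highest log2 fold changes were -1.67 and -1.49. The CUL4B median was -3.99, with 1 hairpin at 0 tags at PD60, and both medians were above the -5.86 over all hairpins. CUL4B was chosen after its values were seen. RAD54B and RAD54L both had 5 of 5 hairpins over 2-fold lower, near the same 95.3% of all hairpins.

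The summed profiles were also set against those of all other genes with at least 3 hairpins, as log2 of summed CPM plus 1 over PD40. The measure of likeness was the root mean square difference over 4 columns, which share their depth and dominant hairpins. Nearest to ATM were SMARCA1 (0.18 log2) and SMYD3 (0.20), and nearest to RAD54L SMYD2 (0.17) and FOS (0.28). SMARCAD1 (0.21) and USF1 (0.25) were nearest to ALKBH2, and SNAI1 (0.29) and PARP1 (0.29) to ALKBH3. ATR and DDB1 had less close neighbours, PRDM16 (0.45) and LMNB1 (0.61) for ATR, and ACTL6B (0.47) and HIST1H4A (0.73) for DDB1. At PD60 the ATR sum was 99.6% TRCN0000039617 and the DDB1 sum 94.0% TRCN0000082856, so there each profile is mainly that of a single hairpin. Lamin B1 (LMNB1) was also among the controls added to each pool. PARP1 is the one gene among these neighbours that also stood in the list of damage and repair genes, which held 29 of 631 genes. At PD60 ALKBH3 held 2.42e-05% of tags and PARP1 1.21e-05%, so their likeness there rests on almost no tags.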

How the data were processed

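Genomic DNA of 50 samples, 10 plates at each of 5 population doublings, was amplified around the hairpin and sequenced, per the labels' protocols. The authors deposited raw counts of tags per hairpin, per the file headers with 1 column for each population doubling. The submitters' processing notes list Bowtie 1.0.1. How it was set, and how the plates of a column were joined, is not given in these sources, so a column was taken as the authors' pooled value.

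Counts were scaled to column totals (CPM). Log2 fold changes used a pseudocount of 1 CPM and at least 10 tags in either column, and calls a 2-fold threshold. Ratios carry exact 95% intervals from the binomial form of 2 Poisson counts. The calculation was run on simulated Poisson counts. These held no added spread from amplification or plates, so they cannot show how well the intervals hold in these data. Scaling by TMM (edgeR 4.0.16) and by DESeq2 1.42.0 size factors in R 4.3.3 served as alternatives; no count test was run. Python 3.11.15, numpy 2.4.6, pandas 2.3.3 and scipy 1.17.1 were used. Quintiles of starting abundance ranked all 3443 hairpins by PD40 tags.

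All hairpins of the 6 genes were described. Other genes were the 3 highest and 3 lowest medians of a list of 87 damage and repair symbols, 29 of them in the table, and the 2 nearest summed profiles per gene. The 6 genes and the list were chosen with earlier results of these data known.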

Additional observations from a re-analysis of the deposited data

How the results depend on the processing

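No paired analysis was possible because plates were pooled within the columns; for the same reason no plate could be left out. Totals were the main scaling. TMM and DESeq2 size factors were set from hairpins with tags, not from the whole library. They shift the log2 ratio of PD60 over PD40 by 6.85 and 6.91 before a pseudocount is added. Totals without the 50 hairpins most abundant at PD60 shift it by 3.14. With the pseudocount, hairpins with few tags at PD60 move by less. The median over all hairpins was still -1.84 log2 with TMM and -1.91 with DESeq2 size factors. Directions in the text are therefore relative to the column total. With TMM 7 of 38 hairpins were over 2-fold higher (18.8% of all hairpins) and 26 lower, and with DESeq2 size factors also 7 (19.3% of all) and 26; the added 4 were ATM TRCN0000039950, ATR TRCN0000010302, ALKBH2 TRCN0000064682 and RAD54L TRCN0000000233.

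The count of 3 hairpins over 2-fold higher was 1 with PD55 as end point, and 1 to 3 when 1 gene was left out, the 1 being without DDB1. The median of -6.11 was -6.91 with a pseudocount of 0.5, -3.19 with 10, -2.22 with TMM, -2.36 with DESeq2 size factors and -5.45 without the 50 hairpins. It was -5.17 at PD55, -4.81 for the means of late over early columns, and -7.41 with counts under 3 raised to 3, a setting chosen after seeing the data. Less the median of all hairpins it was -0.25 under the main setting, -0.38 with TMM, -0.45 with DESeq2 size factors, 0.028 with a pseudocount of 10 and 0.20 without ATM. The side of the library's median on which the group lay therefore turned with those last 2 choices.

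For summed tags, ratios of PD60 to PD40 are given in the order main, TMM, DESeq2 size factors, totals without the 50 hairpins, PD55 as end point, and without the gene's most abundant hairpin at PD60. ATM had 0.0110, 1.27, 1.32, 0.0972, 0.0821 and 0.00500. ATR had 3.66, 421, 438, 32.3, 3.22 and 0.0196. DDB1 had 4.82, 555, 578, 42.6, 0.135 and 0.475. RAD54L had 0.0109, 1.25, 1.30, 0.0960, 0.0543 and 0.00341. ALKBH2 had 0.0352, 4.05, 4.22, 0.311, 0.129 and 0, as no other hairpin had a tag. ALKBH3 had 0.000755, 0.0868, 0.0905, 0.00666, 0.00461 and 0.000427. The reversals of ATR and DDB1 follow from removing 1 hairpin, that of DDB1 at PD55 from its gain in the last interval, and those under TMM and DESeq2 from the shift above. At PD60 22 of the 38 hairpins had at most 3 tags, so their order is not resolved.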
